A study of Mus musculus with 16 samples.

Results

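The endothelial genes are 36 genes that mark the cells lining blood vessels, from adhesion molecules and growth factor receptors to transcription factors and genes of capillary or arterial endothelium. They were taken by symbol from a named list, and every non-control probe whose accession belongs to 1 of them was used. All 36 have a probe on the array, which carries 22911 symbols in all, and 29 of them were among the 15646 genes bright enough to be tested. The list was drawn up with earlier results of these arrays known.

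The study compared whole kidneys of C57BL/6 mouse embryos at embryonic day 17.5 in 4 genotypes with 4 arrays each. The double knockout lacks Ezh2 in Six2-positive nephron progenitors and both germline copies of Ezh1, and the Ezh1-het group has the same Ezh2 deletion with 1 Ezh1 copy lost. The Ezh2-KO group has that deletion with wild-type Ezh1, and the control group is labelled wild type. All 3 knockout groups therefore share the Ezh2 deletion, so a difference from control in the double knockout or in Ezh1-het mixes the loss of both genes, while a difference from Ezh2-KO goes with the germline Ezh1 allele. The deletion of Ezh2 is driven in the Six2 lineage, which gives rise to nephron epithelium and not to vessels, whereas the Ezh1 loss is germline and affects every cell, endothelium included. Whole kidneys mix all these cells, and in such bulk RNA fewer endothelial cells and less RNA per endothelial cell cannot be told apart. Each array read its sample in Cy5 against RNA of control 1 in Cy3. Values below are log2 of normalised Cy5 over Cy3, so a level of 0 is an equal reading of the sample and of control 1 RNA. A difference of 1 is a doubling of that ratio. Control 1 was itself read against control 1 RNA, and its levels of the measured endothelial genes still ran from -0.28 (Flt1) to 0.18 (Sox17).

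Ezh1 and Ezh2 are alternative catalytic subunits of the Polycomb complex PRC2, which methylates a lysine of histone H3 and holds developmental genes silent. Endothelial cells of the embryonic kidney form the glomerular tuft, the peritubular capillaries and the arterial tree, under vascular endothelial growth factor (VEGF) released by podocytes and tubules and received by Kdr and Flt1. Their identity rests on factors of the ETS, GATA and SoxF families, and ETS factors such as Erg, Fli1 and Ets1 bind sites with the core GGAA.

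Promoters of 5 members are shown because these genes stand for the patterns described below. Kdr, Robo4 and Emcn followed the mean of the other members closely over the arrays, Gata2 followed it least, and Rasip1 passed the test between Ezh2-KO and control. Each line gives the 250 bases before the annotated start from RefSeq (GRCm38.p6), 5′ to 3′ on the gene's own strand, with every GGAA or its reverse complement TTCC in capitals. Kdr lies at chr5:75978456-75978705 on the minus strand, Robo4 at chr9:37401722-37401971 on the plus strand, Emcn at chr3:137340828-137341077 on the plus strand, Gata2 (the upstream of its 2 starts) at chr6:88193641-88193890 on the plus strand and Rasip1 at chr7:45627287-45627536 on the plus strand.
Kdr: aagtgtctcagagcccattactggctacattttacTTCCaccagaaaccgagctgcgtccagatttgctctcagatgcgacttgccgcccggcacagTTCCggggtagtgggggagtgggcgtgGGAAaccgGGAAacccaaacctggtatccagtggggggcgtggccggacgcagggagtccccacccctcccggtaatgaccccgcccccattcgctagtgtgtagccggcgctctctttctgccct
Robo4: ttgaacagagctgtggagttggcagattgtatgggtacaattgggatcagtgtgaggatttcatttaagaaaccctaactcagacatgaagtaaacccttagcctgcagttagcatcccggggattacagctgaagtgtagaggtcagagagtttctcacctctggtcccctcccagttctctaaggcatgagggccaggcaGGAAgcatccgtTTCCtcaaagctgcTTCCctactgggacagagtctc
Emcn: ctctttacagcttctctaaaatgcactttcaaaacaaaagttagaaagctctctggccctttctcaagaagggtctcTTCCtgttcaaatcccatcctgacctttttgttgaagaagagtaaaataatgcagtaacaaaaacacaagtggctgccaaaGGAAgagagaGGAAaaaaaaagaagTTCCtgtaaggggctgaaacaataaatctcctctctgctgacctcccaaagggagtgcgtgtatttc
Gata2: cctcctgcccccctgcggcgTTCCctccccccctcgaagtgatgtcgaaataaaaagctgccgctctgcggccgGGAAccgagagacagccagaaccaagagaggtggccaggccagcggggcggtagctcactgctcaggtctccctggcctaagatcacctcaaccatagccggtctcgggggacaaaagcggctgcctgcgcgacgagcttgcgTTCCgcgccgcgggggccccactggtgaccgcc
Rasip1: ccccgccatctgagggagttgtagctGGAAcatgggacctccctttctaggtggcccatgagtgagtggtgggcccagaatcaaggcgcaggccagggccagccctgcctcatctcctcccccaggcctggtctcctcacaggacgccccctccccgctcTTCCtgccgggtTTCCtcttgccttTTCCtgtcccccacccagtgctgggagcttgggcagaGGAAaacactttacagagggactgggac

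The motif GGAA was counted on both strands, and no other motif was searched. Kdr and Emcn held 4 matches each, a number reached by 33.4% of the 32851 promoters in the table. Robo4 and Gata2 held 3, a number reached by 54.7% of promoters, and Rasip1 held 5, reached by 18.0%. The table lists 24 promoters of 19 members, of which 22 held a match, beside 93.4% of all promoters. The median was 3 matches in the members and 3 in all promoters, and members ranged from 0 (Cldn5) to 7 (Tie1). A short core of this kind is a description of the letters in the window and not evidence of a bound site.

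In Cy5, the 75th percentile of signal over background was 5.21 to 16.6 across the arrays (lowest on control 2), with 53.1% to 63.4% of probes above background by the scanner software's call. Slide 1 holds replicates 1 and 2 of every genotype and slide 2 holds replicates 3 and 4. Ezh1 followed its labels, with means of -4.55 ± 0.08 in the double knockout, -1.13 ± 0.20 in Ezh1-het, 0.05 ± 0.33 in Ezh2-KO and -0.08 ± 0.26 in control (SD, n = 4 each). One of the 5 Ezh2 probes had means of -3.09 ± 0.28, -3.43 ± 0.31, -3.32 ± 0.34 and 0.09 ± 0.43 in the same order (SD, n = 4 each), while the other 4 stood between -0.45 and -0.11 in the knockout groups and between 0.05 and 0.29 in control. Where that probe lies in Ezh2 was not analysed here, and Ezh2 within endothelial cells cannot be read from whole-kidney RNA.

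Detection of the members was counted on the arrays, which does not show which cells of the kidney gave the signal. Of the 36, 18 were well above background on all 16 arrays, among them Icam2, Plvap, Emcn, Egfl7, Cldn5, Nos3 and Ets1, and 11 more passed the filter on fewer arrays. A member bright on the arrays of 1 group alone could pass, so counts over the 29 are not counts over all 36. The other 7 were below the filter. They are the angiopoietin receptor Tek and its partner Tie1, the C-type lectin Clec14a, the Notch ligand Dll4, the clotting protein gene Vwf, and the transcription factors Erg and Sox18. None of the 7 was well above background on any double-knockout or Ezh1-het array. On Ezh2-KO arrays Tie1, Vwf, Erg and Sox18 were well above background on 2 of 4 and Clec14a on 1 of 4, and in control only Vwf was, on 1 of 4 arrays. The Ezh2-KO arrays in question were 3 and 4, both on slide 2. On them 60.4% and 63.4% of all probes were above background, against 53.1% to 60.7% on the other arrays. Tek and Dll4 were not well above background on any of the 16 arrays, and no fold is given for these genes.

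The arrays differed in their level of these genes. The median level over the 29 measured members was -0.12, -0.22, -0.06 and -0.21 on double-knockout arrays 1 to 4, -0.16, 0.09, -0.01 and -0.11 on Ezh1-het arrays, -0.23, -0.06, 0.34 and 0.15 on Ezh2-KO arrays, and -0.03, -0.25, -0.09 and -0.06 on control arrays. Ezh2-KO 3 was the highest of all 16 and Ezh2-KO 1 was among the lowest, so the Ezh2-KO group spread most, with a mean of 0.05 ± 0.25 against -0.15 ± 0.08 in the double knockout, -0.05 ± 0.11 in Ezh1-het and -0.11 ± 0.10 in control (SD, n = 4 each). For the members given array by array, values of double knockout minus Ezh2-KO are therefore also given without Ezh2-KO 3 and within each slide.

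**Figure D1:**
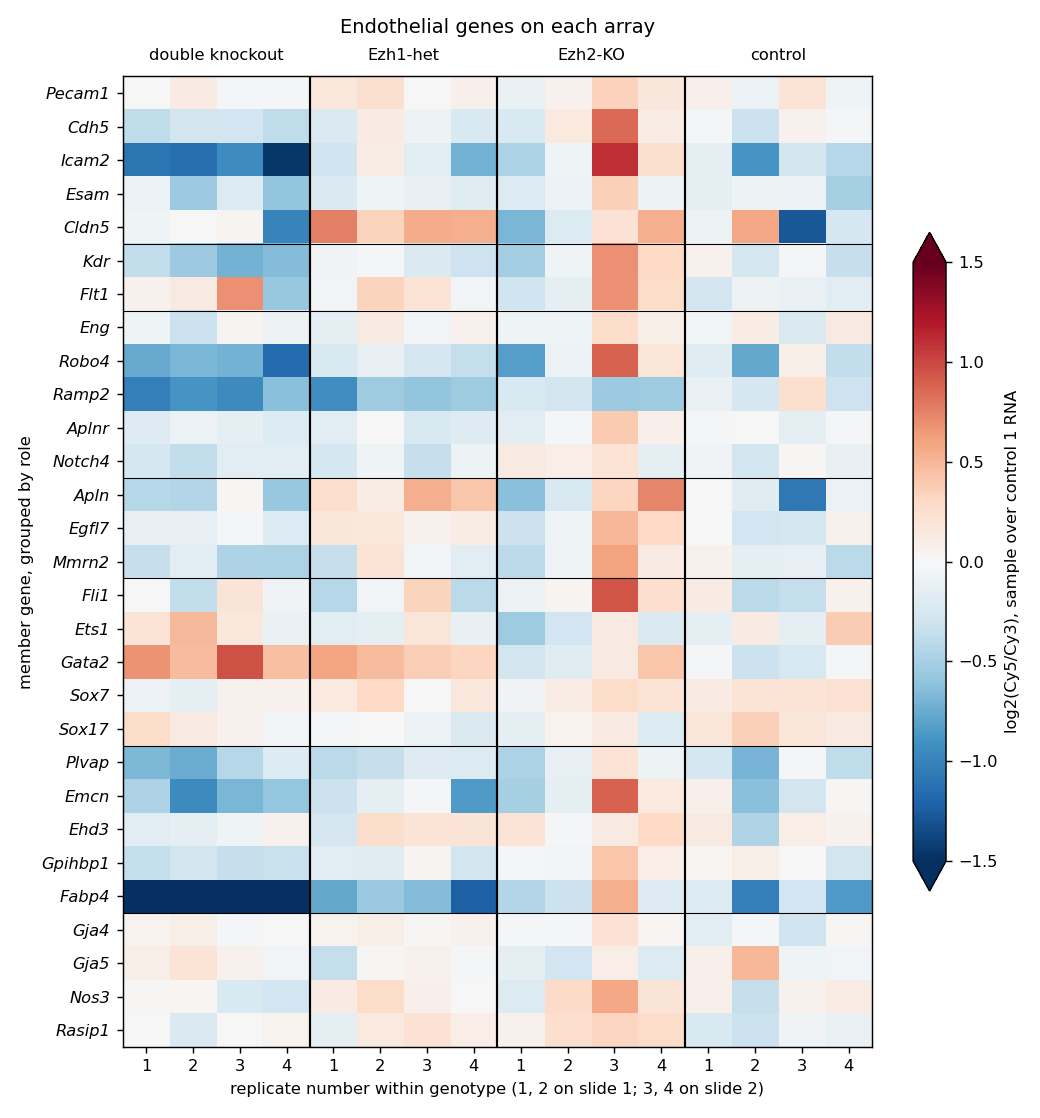
Level of the 29 measured endothelial genes (rows, grouped by role) on each of the 16 arrays (columns, by genotype and replicate), as log2(Cy5/Cy3) against control 1 RNA, with the colour scale closed at -1.5 and 1.5. Fabp4 is at or beyond the lower end on all 4 double-knockout arrays, and Ezh2-KO 3 has the highest column median (0.34).

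The comparison of double knockout with Ezh2-KO asks what loss of both Ezh1 copies adds to the Ezh2 deletion. Here the measured endothelial genes stood lower in the double knockout as a group. Their median difference was -0.31 against -0.04 for all genes tested, and 25 of 29 members were below 0, where 60.9% of all genes were. By limma's adjusted p under 0.05, 2 members fell and 0 rose. They are the capillary fatty acid carrier Fabp4 and the adhesion molecule Icam2, in a comparison in which 0.914% of all genes were called, 0.639% as higher and 0.275% as lower. At an unadjusted p under 0.05, 15 members were lower and 2 higher (Gata2 and Ets1), beside 7.93% and 4.81% of all genes. For 7 members every double-knockout array lay below every Ezh2-KO array (Cdh5, Icam2, Ramp2, Notch4, Gpihbp1, Fabp4 and Rasip1), and for 1, Gata2, every one lay above, beside 4.47% and 3.09% of all genes.

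The size of that shift depended on the slide and on single Ezh2-KO arrays, in both directions. Within slide 1 the members' median difference was -0.15 with 19 of 29 below 0, where 55.7% of all genes were, and within slide 2 it was -0.43 with 25 of 29 below 0, where 56.1% were. Without Ezh2-KO 3 the median was -0.23, 23 of 29 members were below 0, and 10 were lower at an unadjusted p under 0.05, beside 8.58% of all genes. Without Ezh2-KO 1, the array lowest in these genes within its group, the median was -0.42 and 18 members were lower at that level, beside 8.02% of all genes.

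Against control, the double knockout stood lower by less. The median difference of the members was -0.10 against 0.01 for all genes, with 22 of 29 below 0 where 48.5% of all genes were. Fabp4 and the adrenomedullin receptor subunit Ramp2 fell and the transcription factor Gata2 rose (limma adjusted p under 0.05), which makes 3 of 29 called, beside 4.62% of all genes (3.71% as higher and 0.914% as lower). All double-knockout arrays lay below all controls for 5 members (Icam2, Kdr, Ramp2, Sox7 and Fabp4), beside 2.98% of all genes, and above them for Gata2, beside 6.35%. The comparisons with control and with Ezh2-KO share the 4 double-knockout arrays.

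In Ezh1-het kidneys the members lay near other genes against control. There the median difference was 0.05 for members and 0.05 for all genes, and 17 of 29 members were above 0 where 60.6% of all genes were. Gata2 rose and Ramp2 fell, 2 of 29, beside 7.81% of all genes called (5.91% as higher and 1.9% as lower). Against Ezh2-KO 0 members were called by limma, beside 0.0575% of all genes. At an unadjusted p under 0.05, 1 member was higher (Gata2) and 4 were lower (Aplnr, Notch4, Gpihbp1 and Fabp4), beside 3.96% and 3.41% of all genes. The median difference from Ezh2-KO was -0.14 against -0.01 for all genes, with 20 of 29 members below 0 where 51.7% of all genes were. The median was 0.10 on slide 1, -0.26 on slide 2 and 0.00 without Ezh2-KO 3.

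In Ezh2-KO kidneys, where the deletion lies outside the vessels by design, the members' median difference from control was 0.21 against 0.06 for all genes, and 24 of 29 were above 0 where 62.6% of all genes were. Rasip1, an adaptor needed for vessel lumens in the mouse, was the 1 member that rose, beside 3.08% of all genes called, with 2.4% called as higher. The positive median came from slide 2, with 0.40 and 25 of 29 above 0, against -0.05 and 11 of 29 on slide 1 (of all genes, 38.8% were below 0 on slide 2 and 44.2% on slide 1), and it was 0.09 without Ezh2-KO 3. With each array centred on its median in place of loess, all genes moved up against control by a median of 0.38 in the double knockout, 0.44 in Ezh1-het and 0.41 in Ezh2-KO. The members' medians were then -0.10, 0.14 and 0.37, which is below that of all genes in each comparison, Ezh2-KO included. Against Ezh2-KO, the double knockout kept a members' median of -0.32 with median centring, beside -0.03 for all genes.

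**Figure D2:**
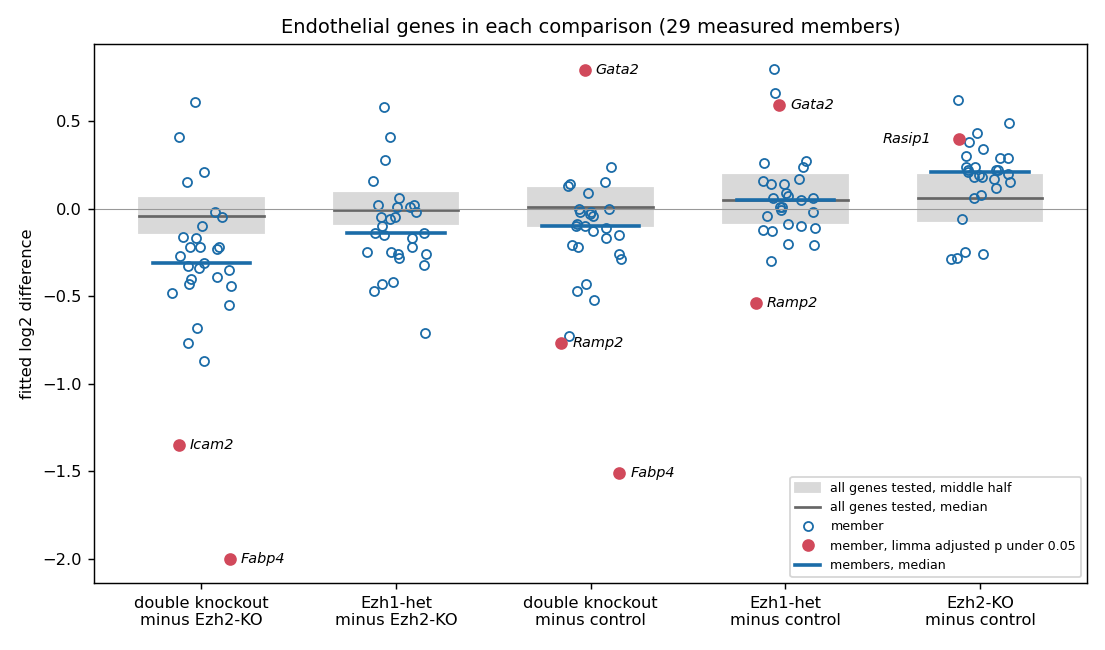
Fitted log2 difference of each of the 29 measured members (points, filled where limma's adjusted p was under 0.05) in the 5 comparisons, with the members' median (blue line), the median of all 15646 genes (grey line) and their middle 50% (grey band). The members' median is -0.31 for double knockout minus Ezh2-KO and 0.21 for Ezh2-KO minus control.

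Among junction and adhesion genes, all 5 of which were measured, Icam2 differed most. Icam2 binds leukocyte integrins and is constitutive on endothelium, and leukocytes and platelets carry it too. Its level was -1.09, -1.13, -0.94 and -1.46 on the double-knockout arrays, -0.30, 0.11, -0.17 and -0.71 in Ezh1-het, -0.47, -0.07, 1.10 and 0.24 in Ezh2-KO, and -0.13, -0.88, -0.27 and -0.43 in control. Every double-knockout array lay below every array of the other 3 groups, and Ezh2-KO 3 was the highest of all. Icam2 fell by 1.35 in the double knockout relative to Ezh2-KO (2.56-fold, SE 0.27, 95% interval -1.92 to -0.79, limma adjusted p = 0.0202). The difference was -0.84 on slide 1 and -1.87 on slide 2, and -1.05 without Ezh2-KO 3 (adjusted p = 0.0285). The call ended without double-knockout 2 (-1.36, adjusted p = 0.0587) or double-knockout 4 (-1.25, adjusted p = 0.0609). It also ended with only the 2 groups compared (adjusted p = 0.0939) and within slide 1 or slide 2 alone (adjusted p of 0.19 and 0.206). Relative to control the difference was -0.73 (SE 0.27, adjusted p = 0.154).

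Cdh5 encodes VE-cadherin, the adhesion protein of endothelial junctions. Its levels were -0.38, -0.27, -0.29 and -0.38 in the double knockout, -0.22, 0.12, -0.08 and -0.23 in Ezh1-het, -0.23, 0.15, 0.85 and 0.11 in Ezh2-KO, and -0.03, -0.32, 0.07 and -0.02 in control. The double-knockout arrays lay below all Ezh2-KO arrays but overlapped those of control. The probe was not well above background on any double-knockout array and was so on 3 of 4 Ezh2-KO arrays. The fold between group means of Cy5 is therefore a bound, which leaves out the spread between arrays. For the observed means, 6.23 in the double knockout and 6.83 in Ezh2-KO on the log2 scale, the bound was 1.49-fold lower in the double knockout. That bound is no floor for the fitted fold of Cy5 over Cy3, which was 1.46. The fitted difference was -0.55 (SE 0.17, 95% interval -0.90 to -0.20), short of the threshold (limma adjusted p = 0.151). The fitted difference was -0.28 on slide 1, -0.82 on slide 2 and -0.34 without Ezh2-KO 3. With the deposited Feature Extraction ratio it was -2.52 and past the threshold (adjusted p = 0.0399). Relative to control the bound on the group means was 1.16-fold lower, and the fitted difference was -0.26 (95% interval -0.61 to 0.10, adjusted p = 0.478).

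The other 3 genes of this role did not pass in any comparison. Pecam1, the pan-endothelial adhesion molecule CD31, differed by -0.10 between double knockout and Ezh2-KO (SE 0.10) and by -0.02 from control. Esam, an immunoglobulin-type junction protein, differed by -0.35 and -0.15. The tight junction gene Cldn5 was uneven between arrays, with control 3 at -1.27 and double-knockout 4 the lowest of its group while the Ezh1-het arrays lay between 0.33 and 0.75. Its difference between Ezh1-het and control was 0.80 (SE 0.33, adjusted p = 0.147).

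Of the VEGF receptors, Kdr is the main signalling receptor and Flt1 binds VEGF and limits its action. Kdr was at -0.37, -0.55, -0.71 and -0.65 in the double knockout, -0.05, -0.02, -0.22 and -0.31 in Ezh1-het, -0.51, -0.06, 0.69 and 0.30 in Ezh2-KO, and 0.07, -0.26, -0.03 and -0.34 in control. The double-knockout arrays lay below all control and Ezh1-het arrays, and Ezh2-KO 1 overlapped them. Kdr did not pass the test, with -0.68 between double knockout and Ezh2-KO (SE 0.19, limma adjusted p = 0.119) and -0.43 relative to control (SE 0.19, adjusted p = 0.244). The difference from Ezh2-KO was -0.18 on slide 1 and -1.17 on slide 2. Without Ezh2-KO 3 it was -0.48 (adjusted p = 0.187), and without Ezh2-KO 1 it was -0.88 and past the threshold (adjusted p = 0.0105). Kdr was well above background on 1 of 4 double-knockout arrays and on all other arrays.

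Flt1 did not share that pattern. It was at 0.07, 0.14, 0.69 and -0.57 in the double knockout, -0.04, 0.33, 0.21 and -0.04 in Ezh1-het, -0.30, -0.15, 0.69 and 0.28 in Ezh2-KO, and -0.28, -0.08, -0.10 and -0.17 in control. The double-knockout arrays spanned the whole range of the other groups. The difference was -0.05 between double knockout and Ezh2-KO (SE 0.23, 95% interval -0.53 to 0.43, 0.33 and -0.43 on slides 1 and 2, 0.14 without Ezh2-KO 3) and 0.24 relative to control (SE 0.23, limma adjusted p = 0.651).

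Among the other receptors, 5 of 6 were measured and all 5 stood lower in the double knockout than in Ezh2-KO, by -0.87 to -0.17. Robo4, a guidance receptor that stabilises vessels, was at -0.76, -0.68, -0.71 and -1.16 in the double knockout, -0.23, -0.12, -0.25 and -0.36 in Ezh1-het, -0.83, -0.09, 0.88 and 0.18 in Ezh2-KO, and -0.18, -0.77, 0.09 and -0.37 in control. The double-knockout arrays were all low, but Ezh2-KO 1 and control 2 reached as low. The difference from Ezh2-KO was -0.87 (SE 0.26, limma adjusted p = 0.148), at -0.27 on slide 1 and -1.47 on slide 2. Without Ezh2-KO 3 it was -0.59 (adjusted p = 0.242), and without Ezh2-KO 1 it was -1.16 and past the threshold (adjusted p = 0.0161). Relative to control it was -0.52 (SE 0.26, adjusted p = 0.329). Robo4 was well above background on 2 of 4 double-knockout arrays, 3 of 4 control arrays and all others.

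Ramp2 encodes the subunit that turns the calcitonin-receptor-like receptor into an adrenomedullin receptor, and in mice it is needed for vessel integrity. Its levels were -1.02, -0.89, -0.95 and -0.63 in the double knockout, -0.93, -0.53, -0.59 and -0.53 in Ezh1-het, -0.23, -0.27, -0.54 and -0.53 in Ezh2-KO, and -0.10, -0.25, 0.24 and -0.31 in control. All double-knockout arrays and all Ezh1-het arrays lay below every control array. Ramp2 fell by 0.77 in the double knockout relative to control (1.70-fold, SE 0.13, 95% interval -1.05 to -0.49, limma adjusted p = 0.00199) and by 0.54 in Ezh1-het (1.45-fold, SE 0.13, adjusted p = 0.0224). In Ezh2-KO the difference from control was -0.29 (SE 0.13, adjusted p = 0.222), and double knockout minus Ezh2-KO was -0.48 (SE 0.13, adjusted p = 0.115).

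On slides 1 and 2 Ramp2 differed from control by -0.77 and -0.76 in the double knockout and by -0.55 and -0.53 in Ezh1-het, but by -0.07 and -0.51 in Ezh2-KO. Relative to Ezh2-KO the slides therefore differed, with -0.70 and -0.26 for the double knockout and -0.48 and -0.02 for Ezh1-het. Without Ezh2-KO 3, double knockout minus Ezh2-KO was -0.53. A dimmer second probe of Ramp2, fitted with every probe as its own feature, differed by -0.38 in both comparisons (adjusted p of 0.18 and 0.102), short of the threshold. The Ezh1-het call ended without Ezh1-het 1 (-0.45, adjusted p = 0.0602) or control 3 (-0.42, adjusted p = 0.0580). It also ended with only the 2 groups compared, with a trended and robust variance and without controls 2 and 3 (adjusted p of 0.0514, 0.0937 and 0.166). Within slide 1 or slide 2 alone both calls ended, with adjusted p of 0.0537 and 0.152 in the double knockout and 0.151 and 0.243 in Ezh1-het. With median centring the values of the brighter probe were -0.15 and 0.09 and neither was called, in a setting where all genes had medians of 0.38 and 0.44.

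Ramp2 is the protein-coding gene next to Ezh1 on chromosome 11 in RefSeq's gene order (GRCm38.p6), so its neighbours were examined. Of the 10 protein-coding genes on each side of Ezh1, 17 were measured. Ramp2 was the only 1 of the 17 to pass the limma threshold, in both comparisons with control that involve an Ezh1 loss, and 0 of 17 passed against Ezh2-KO. Cntnap1, the nearest gene on the other side, differed from control by -0.45 in the double knockout, -0.53 in Ezh1-het and -0.47 in Ezh2-KO (SE 0.17 each, adjusted p of 0.164, 0.0645 and 0.131). Vps25, beyond Ramp2, differed by 0.15, 0.33 and 0.25 in the same order (SE 0.10 each). Ezh1 itself fell by 4.47 in the double knockout relative to control (adjusted p = 5.47e-11) and by 1.05 in Ezh1-het (adjusted p = 0.000912). The germline Ezh1 allele and the segment of chromosome 11 that carries it come together in these animals, and their parts in the Ramp2 values cannot be told apart. Icam2 and Pecam1 are also on chromosome 11, outside these 20 neighbours.

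**Figure D3:**
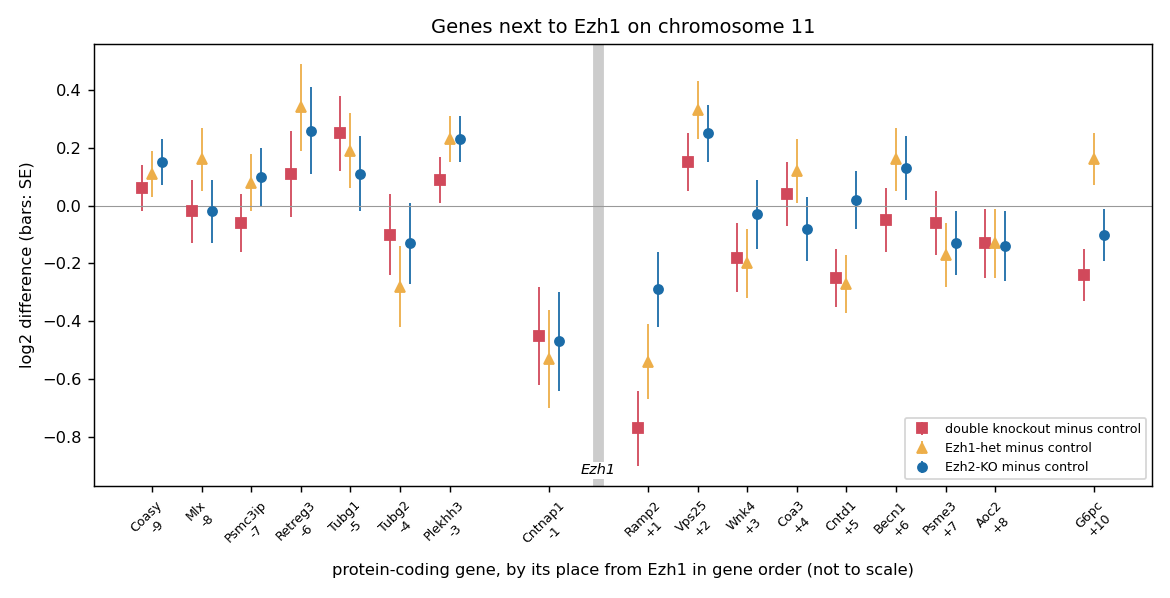
Log2 difference from control (vertical axis, bars show the SE, n = 4 per group) of the 17 measured protein-coding genes nearest Ezh1, in their order along chromosome 11 with equal spacing (not to scale). Ramp2 is lowest in the double knockout (-0.77) and next in Ezh1-het (-0.54), and Cntnap1 is similar in all 3 knockout groups.

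The remaining receptors moved little. Aplnr, the apelin receptor, was not well above background on any double-knockout array. The bound on its group means was 1.18-fold lower there than in Ezh2-KO. Its fitted difference was -0.23 (95% interval -0.43 to -0.02, limma adjusted p = 0.350). Notch4, the endothelial Notch receptor, lay below all Ezh2-KO arrays in the double knockout, with a difference of -0.31 (SE 0.10, adjusted p = 0.157) and of -0.26 for Ezh1-het minus Ezh2-KO (adjusted p = 0.667). Eng, the endothelial co-receptor of the TGF-beta family, differed by -0.17 (SE 0.11).

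Of 5 genes for ligands and secreted proteins, 3 were measured and 0 were called. The peptide Apln, a product of endothelial tip cells, differed by -0.40 between double knockout and Ezh2-KO (SE 0.26), and its Ezh1-het arrays lay above all controls by a mean of 0.66 (SE 0.26, limma adjusted p = 0.132). Control 3 was at -1.07 for Apln and the other controls at -0.18 to 0.00. Egfl7, a secreted factor that is also the host of an endothelial microRNA, differed by -0.22 (SE 0.14), and the matrix protein Mmrn2, which binds Clec14a and Cd93, by -0.43 (SE 0.17, adjusted p = 0.313).

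The transcription factors went in both directions. Of 7, 5 were measured, and their median difference between double knockout and Ezh2-KO was 0.15. Of these 5, 3 were above 0 (Gata2, Ets1 and Sox17) and 2 below 0 (Fli1 and Sox7). Gata2 is a zinc-finger factor of endothelium and blood precursors that is also present in collecting duct cells. Its levels were 0.67, 0.48, 0.96 and 0.45 in the double knockout, 0.59, 0.48, 0.37 and 0.32 in Ezh1-het, -0.28, -0.18, 0.14 and 0.42 in Ezh2-KO, and -0.03, -0.32, -0.24 and -0.02 in control. All arrays with an Ezh1 loss lay above all controls, and only Ezh2-KO 4 reached the range of the Ezh1-het arrays.

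Gata2 rose by 0.79 in the double knockout relative to control (1.73-fold, SE 0.15, 95% interval 0.48 to 1.10, limma adjusted p = 0.00348) and by 0.59 in Ezh1-het (1.51-fold, SE 0.15, adjusted p = 0.0232). On slides 1 and 2 the differences were 0.75 and 0.83 in the double knockout and 0.71 and 0.47 in Ezh1-het. Relative to Ezh2-KO, the double knockout differed by 0.61 (SE 0.15, adjusted p = 0.0585), with 0.80 on slide 1, 0.43 on slide 2 and 0.65 without Ezh2-KO 3, and by 0.74 without Ezh2-KO 4 (adjusted p = 0.0115). Without controls 2 and 3 together, the double-knockout call ended (0.66, adjusted p = 0.0618), as did the Ezh1-het call (0.46, adjusted p = 0.256). Within slide 2 alone both calls ended (adjusted p of 0.122 in the double knockout and 0.27 in Ezh1-het). Within slide 1 alone the Ezh1-het call ended (adjusted p = 0.0636). The Ezh1-het call ended without Ezh1-het 1 or 2 or control 2 or 3, with values of 0.54 to 0.58 and adjusted p of 0.0545 to 0.0681. Gata2 was well above background on all double-knockout and Ezh1-het arrays and on 2 of 4 in each of the other groups. With the deposited Feature Extraction ratio it rose by 2.71 in the double knockout and 2.10 in Ezh1-het relative to control (adjusted p of 0.0093 and 0.0387).

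Fli1 and Ets1, both ETS factors, differed in opposite directions between double knockout and Ezh2-KO, by -0.34 (SE 0.22) and 0.41 (SE 0.15, limma adjusted p = 0.267). A second Ets1 probe differed by 0.20. Of the SoxF factors, which specify arterial and lymphatic endothelium, Sox7 differed by -0.16 and Sox17 by 0.15 (SE 0.09 each). Sox17 lay below all controls in Ezh1-het, by -0.30 (SE 0.09, adjusted p = 0.0598).

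Among capillary and vessel-bed genes all 5 were measured and all 5 were below 0 between double knockout and Ezh2-KO, with a median of -0.44, and also relative to control, with a median of -0.29. Fabp4 carries fatty acids inside capillary endothelium, and adipocytes and macrophages express it as well. Its levels were -1.67, -2.34, -1.72 and -2.68 in the double knockout, -0.77, -0.56, -0.65 and -1.23 in Ezh1-het, -0.44, -0.32, 0.55 and -0.19 in Ezh2-KO, and -0.20, -1.02, -0.29 and -0.85 in control. Every double-knockout array lay below every other array, and every Ezh1-het array lay below every Ezh2-KO array. The Ezh1-het and control arrays overlapped.

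Fabp4 fell by 2.00 in the double knockout relative to Ezh2-KO (4.01-fold, SE 0.26, 95% interval -2.56 to -1.45, limma adjusted p = 0.000482) and by 1.51 relative to control (2.85-fold, SE 0.26, adjusted p = 0.00221). Between Ezh1-het and Ezh2-KO the difference was -0.71 (SE 0.26, adjusted p = 0.667), and relative to control it was -0.21 (SE 0.26, adjusted p = 0.644). On slides 1 and 2 double knockout minus Ezh2-KO was -1.63 and -2.38, and double knockout minus control was -1.39 and -1.63. Both calls held without each array in turn, at -2.15 to -1.78 (-1.78 without Ezh2-KO 3) and -1.65 to -1.32. The call against control ended with a trended and robust variance (adjusted p = 0.0629). Within slide 2 alone both calls ended (adjusted p of 0.205 against Ezh2-KO and 0.15 against control). A dimmer second probe of Fabp4, well above background on 1 of 4 double-knockout arrays, fell by 0.89 relative to Ezh2-KO (SE 0.17, adjusted p = 0.0198 with every probe as its own feature) and differed by -0.53 from control (adjusted p = 0.112).

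Markers of the other cells that express Fabp4 are given beside it. Of 8 adipocyte genes, Adipoq, Plin1 and Cfd were not well above background on any of the 16 arrays and Cidec was so on 1. The other 4 (Pparg, Lpl, Cebpa and Retn) were measured and were all below 0 between double knockout and Ezh2-KO, with a median of -0.14 and 0 calls by limma (0 also at an unadjusted p under 0.05). Cebpa rose by 0.40 in Ezh1-het relative to control (adjusted p = 0.0333). The 8 macrophage genes, 0 of which were called, had array medians of -0.14 to 0.57 in the double knockout, -0.29 to 0.46 in Ezh1-het, -0.06 to 0.72 in Ezh2-KO and -0.30 to 0.26 in control. Their median difference was -0.14 between double knockout and Ezh2-KO and 0.28 relative to control. The part of macrophages and adipocytes in the Fabp4 values was not tested.

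Emcn, a sialomucin of venous and capillary endothelium, was at -0.46, -0.96, -0.69 and -0.58 in the double knockout, -0.32, -0.13, -0.03 and -0.85 in Ezh1-het, -0.50, -0.14, 0.88 and 0.15 in Ezh2-KO, and 0.08, -0.63, -0.27 and 0.02 in control. The groups overlapped, since Ezh2-KO 1 and control 2 were as low as the double knockout. Emcn differed by -0.77 between double knockout and Ezh2-KO (SE 0.25, limma adjusted p = 0.184), with -0.39 on slide 1, -1.15 on slide 2 and -0.51 without Ezh2-KO 3, and by -0.47 relative to control (SE 0.25, adjusted p = 0.358).

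Gpihbp1 carries lipoprotein lipase to the capillary lumen. It was at -0.36, -0.27, -0.35 and -0.33 in the double knockout, -0.16, -0.18, 0.04 and -0.28 in Ezh1-het, -0.02, -0.04, 0.42 and 0.10 in Ezh2-KO, and 0.03, 0.09, 0.00 and -0.27 in control. The double-knockout arrays were the tightest set and lay below all Ezh2-KO arrays. The difference was -0.44 relative to Ezh2-KO (SE 0.11, limma adjusted p = 0.0647), with -0.28 on slide 1, -0.60 on slide 2 and -0.34 without Ezh2-KO 3, and -0.29 relative to control (SE 0.11, adjusted p = 0.163). Plvap, which builds the diaphragms of fenestrated capillaries, differed by -0.39 between double knockout and Ezh2-KO (SE 0.15) and by -0.17 relative to control. Ehd3, an endocytic protein of glomerular endothelium in mice, differed by -0.22 and -0.03 (SE 0.13 each).

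**Figure D4:**
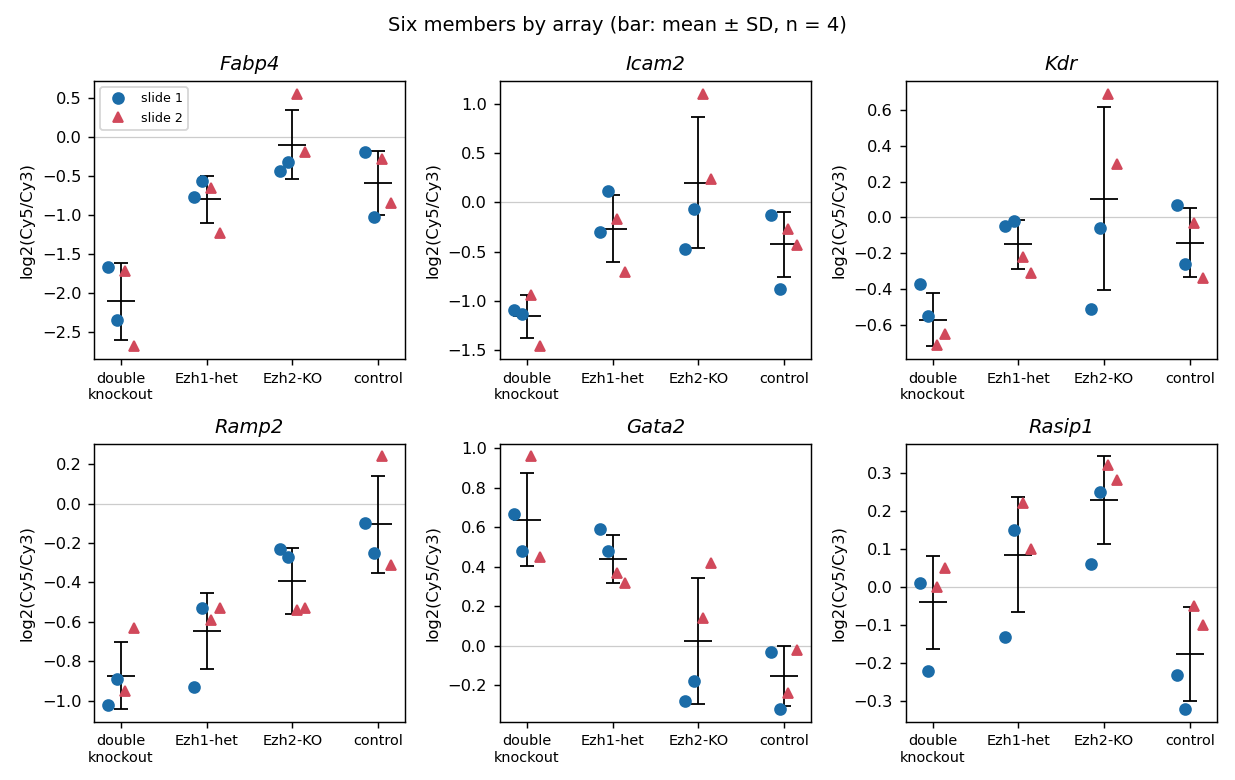
Levels of Fabp4, Icam2, Kdr, Ramp2, Gata2 and Rasip1 on each array as log2(Cy5/Cy3), with circles for slide 1 and triangles for slide 2, and bars for the mean ± SD of each genotype (n = 4). Double-knockout arrays are lowest for Fabp4 and Icam2, and Gata2 is above all controls wherever Ezh1 was lost.

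Among arterial and signalling genes, 4 of 4 measured, Rasip1 alone was called. Its levels were 0.01, -0.22, 0.00 and 0.05 in the double knockout, -0.13, 0.15, 0.22 and 0.10 in Ezh1-het, 0.06, 0.25, 0.32 and 0.28 in Ezh2-KO, and -0.23, -0.32, -0.05 and -0.10 in control. Every Ezh2-KO array lay above every control array. Rasip1 rose by 0.40 in Ezh2-KO relative to control (1.32-fold, SE 0.10, 95% interval 0.20 to 0.61, limma adjusted p = 0.0323), with 0.43 on slide 1 and 0.37 on slide 2. That call ended when Ezh2-KO 2, 3 or 4 or control 1 or 2 was left out, with values of 0.35 to 0.40 and adjusted p of 0.0619 to 0.0987. It also ended with only the 2 groups compared and without controls 2 and 3 (adjusted p of 0.125 and 0.175). Within slide 1 or slide 2 alone it ended too (adjusted p of 0.185 and 0.165). The difference was -0.27 for double knockout minus Ezh2-KO (SE 0.10, adjusted p = 0.234), with -0.26 on slide 1, -0.27 on slide 2 and -0.24 without Ezh2-KO 3.

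The gap junction genes Gja4 and Gja5 mark arteries, and Nos3 makes nitric oxide. Double knockout minus Ezh2-KO was -0.02 (SE 0.08) for Gja4, 0.21 (SE 0.13) for Gja5 and -0.33 (SE 0.14, limma adjusted p = 0.359) for Nos3. In this role the members' median difference was -0.14, against -0.44 in the capillary genes, a contrast that was not tested.

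The deposited Feature Extraction ratio gave larger differences between double knockout and Ezh2-KO for most of these genes. It gave -2.95 for Fabp4 and -2.15 for Icam2, both called, and -2.12 for Robo4, -2.02 for Kdr, -1.32 for Emcn and -0.74 for Gpihbp1, none of them called. Ramp2 was at -0.47 and Rasip1 at -0.35 by that measure.

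The members tracked one another over the arrays to different degrees. Over the 12 Ezh2-deficient arrays, Cdh5 and Robo4 (r = 0.95 each), Mmrn2 (0.94), Icam2 (0.92) and Kdr (0.91) followed the mean of the other members most closely by Pearson correlation. Gata2 (-0.22), Sox17 (-0.04), Ets1 (-0.02), Gja5 (0.02) and Ramp2 (0.22) followed it least. The median correlation over the 406 pairs of members was 0.51, and 334 pairs were positive. The 12 arrays share the genotype means and 1 reference RNA, so these values describe the arrays and are given with no test.

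By the same measure the genes outside the list most like the members' mean were Ptprb (r = 0.957), Cd93 (0.943), Pcdh12 (0.941), Tyms (0.936), Ushbp1 (0.931), Ccm2l (0.921), Cdc42ep1 (0.916), Gimap6 (0.909), Gimap4 (0.907) and S100a4 (0.902), over 12 arrays. Ptprb is a phosphatase of endothelial junctions, Cd93 a transmembrane glycoprotein of endothelium and myeloid cells, and Pcdh12 an endothelial protocadherin. Tyms makes thymidylate for DNA synthesis.

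Further genes of endothelium, none of them a member, are given from a second list. Of its 28 pan-endothelial genes 24 were measured. Their median difference between double knockout and Ezh2-KO was -0.22, where all genes had a median of -0.04. Of the 24, 17 were below 0, where 60.9% of all genes were. The sialomucin Cd34 fell by 0.85 (limma adjusted p = 0.0113) and the repressor Bcl6b by 0.75 (adjusted p = 0.0137), and 0 rose. Of all genes, 0.275% were called as lower and 0.639% as higher. Against control, Tal1, a factor of blood and endothelium, rose by 0.49 in the double knockout (adjusted p = 0.0232), beside 3.71% of all genes called as higher. In Ezh1-het the Notch target Hey1 rose by 0.50 (adjusted p = 0.0363) and the anticoagulant receptor Thbd fell by 0.67 (adjusted p = 0.00344), beside 5.91% and 1.9% of all genes.

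The VEGF and angiopoietin ligands and co-receptors, 12 of 13 measured, had 0 calls in the 5 comparisons by limma's adjusted p. At an unadjusted p under 0.05, 2 of them were higher and 1 lower between double knockout and Ezh2-KO, beside 4.81% and 7.93% of all genes. At that level 0 differed between Ezh1-het and Ezh2-KO, and 1 was lower in each comparison with control. Vegfa differed by -0.07 between double knockout and Ezh2-KO (SE 0.08) and by -0.10 between double knockout and control. Of vessel Notch genes, a list that shares Hey1 with the one above, 7 of 8 were measured and Hey1 in Ezh1-het was the 1 call. Of 6 lymphatic genes 4 were measured, and the chemokine Ccl21a rose by 0.88 in Ezh2-KO relative to control (adjusted p = 0.00709), while the list's median difference was 0.33 in the double knockout, 0.20 in Ezh1-het and 0.36 in Ezh2-KO.

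Markers of other cells also moved between the groups. Between double knockout and Ezh2-KO the median difference was -0.78 for 6 measured erythroid genes and -0.39 for 8 nephron tubule genes. It was 0.00 for 8 podocyte genes, 0.03 for 8 mural and stromal genes and -0.02 for 5 megakaryocyte and platelet genes. None of these lists had a gene past the threshold in that comparison. Array medians of the erythroid genes ran from -1.12 to -0.10 in the double knockout, -0.11 to 0.36 in Ezh1-het, -0.09 to 0.57 in Ezh2-KO and -0.31 to 0.13 in control. Those of the tubule genes ran from -1.84 to -0.52, -0.05 to 0.36, -2.04 to 0.40 and -2.21 to 0.17 in the same order. In Ezh1-het 5 of 8 podocyte genes rose relative to control, among them Nphs1 (0.94), beside 5.91% of all genes called as higher. The stromal factor Foxd1 rose in the double knockout relative to control (0.72, limma adjusted p = 0.0450). The part of blood, tubule and other cells in the endothelial differences was not tested.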

How the data were processed

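Whole-kidney RNA was hybridised to 16 Agilent 2-colour arrays, 4 for each genotype, with the sample in Cy5 and control 1 RNA in Cy3 on every array and no dye swap. Control 1 was therefore hybridised against itself. Per the file headers, the authors' scanner files were made with Agilent Feature Extraction 10.7.3.1 and hold linear spot and background intensities, not yet normalised between arrays. Its log10 ratio of red over green, already background-subtracted and dye-normalised, stands in the same deposited files, and the deposited value table holds that log10 ratio rounded, with a median of 0 on all 16 arrays.

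Here, median spot and background intensities were corrected with normexp (offset 50) and normalised by loess within each array in limma 3.58.1 (R 4.3.3). The offset is added to both colours and shrinks the log ratios of dim probes, so folds of dim members are sizes under this setting. Control spots had weight 0 in the loess and outlier-flagged spots were left out. A probe was kept where the software called its Cy5 signal well above background on 4 or more of the 16 arrays (34731 probes), and the probe with the highest mean intensity stood for each gene. Genes were named by accession through RefSeq. All 16 arrays entered 1 fit of 15646 genes with moderated, two-sided tests and Benjamini-Hochberg adjustment within each of 5 comparisons, at a threshold of 0.05. Intervals are 95% limits from that fit. Correlations with the members' mean leave out the member itself. The p-values rest on 1 moderated spread per gene, pooled over the arrays within all 4 genotypes. They do not measure the spread of the 2 groups compared alone, and the number of arrays limits the precision.

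The members and lists were chosen with earlier results of these data known. Values on every array were given for the 5 members past the threshold in any comparison, for the next 3 by size of difference between double knockout and Ezh2-KO, and then for the next 3 of the remaining members by size of difference between double knockout and control (Gpihbp1, Cdh5 and Flt1), and other genes of each list were named where they passed. Same-numbered replicates did not deviate together (correlations of -0.48 to 0.49), so the numbers were not taken as pairs. The normalisation, filter, probe choice, slide, replicate block, array weights, variance model and each array were varied.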

Additional observations from a re-analysis of the deposited data

Results flagged for a closer look

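For 11 members in 4 genotypes (44 groups of 4 arrays) and for the members' median (4 groups), each group was tested for 1 array far from the rest (gap to the nearest over the range, above Dixon's 95% critical value), and 3 passed, where chance flags about 1 group in 20. Rasip1 was at -0.22 on double-knockout 2 and at 0.00 to 0.05 on the other 3 double-knockout arrays (gap over range 0.833). Robo4 was at -1.16 on double-knockout 4 and at -0.76 to -0.68 on the others (0.835). Ramp2 was at -0.93 on Ezh1-het 1 and at -0.59 to -0.53 on the others (0.839), and without that array Ramp2 was no longer called between Ezh1-het and control (-0.45, limma adjusted p = 0.0602).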

How the results depend on the processing

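Counts below are members called by limma's adjusted p, in the order double knockout against Ezh2-KO, Ezh1-het against Ezh2-KO, double knockout against control, Ezh1-het against control and Ezh2-KO against control, where the reported counts are 2, 0, 3, 2 and 1. The reported fit called 143, 9, 723, 1222 and 482 of all genes in that order. Array weights gave 16, 4, 6, 5 and 2, in a setting that also called 2903, 3184, 1961, 2384 and 2396 of all genes. Slide 2 alone gave 0 in all 5, where 13, 3, 113, 37 and 6 of all genes were called, and slide 1 alone gave 2, 2, 2, 0 and 0, where 133, 879, 229, 138 and 162 were. With only the 2 groups compared, the counts were 1 for double knockout against Ezh2-KO, 1 for Ezh1-het against control and 0 for Ezh2-KO against control. In these fits 66, 956 and 59 of all genes were called. Median centring gave 5 in Ezh1-het and 5 in Ezh2-KO against control, where it called 51.4% and 43.7% of all genes, and reversed Ramp2 between Ezh1-het and control (0.09, adjusted p = 0.776). A slide block gave 4 and a trended, robust variance gave 1 for Ezh1-het against control, where 1390 and 1185 of all genes were called. Without controls 2 and 3 the count was 0 for Ezh1-het and 0 for Ezh2-KO against control, where 235 and 78 of all genes were called. The replicate block gave 2, 0, 3, 3 and 1, with Sox17 added in Ezh1-het against control (-0.30, adjusted p = 0.0401), and changed no other count.

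Leaving out each array in turn gave 1 to 4, 0 to 0, 3 to 3, 0 to 2 and 0 to 1 calls. Of all genes, 84 to 142, 3 to 35, 441 to 922, 487 to 1189 and 202 to 515 were called in these fits. The members' medians were -0.42 to -0.23, -0.20 to 0.00, -0.14 to -0.08, -0.04 to 0.08 and 0.09 to 0.34. With the deposited Feature Extraction ratio the members' median was -0.59 for double knockout against Ezh2-KO and -0.21 against control. It was -0.05 for Ezh2-KO against control on slide 1 alone. The cause of these changes was not tested, beyond the fewer arrays in the slide, 2-group and left-out settings. Members near background, such as Cdh5 and Aplnr in the double knockout, are limited by signal.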
